A study of Ptychidio jordani with 7 samples.

Results

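Mitochondrial ribosomal proteins are encoded in the nucleus and build the ribosome that works inside mitochondria. In the table of gene expression for Ptychidio jordani, the ratmouth barbel, a cyprinid fish of fresh water, 72 of 26107 genes carried a name that begins with mrpl or mrps and a number. They were chosen by that name alone, whatever their level, and each of the 72 names stood on a single row. By name 44 belonged to the large subunit and 28 to the small subunit. The protein annotation in the same table gave a mitoribosomal entry for 71 of them, and for mrpl58 it gave the peptidyl-tRNA hydrolase ICT1, which is another name of that protein. RNA was sequenced from heart, kidney, muscle, gill, fin (the caudal fin in the design), liver and spleen, with 1 library per tissue, all described as normal. The labels used here state no sex, age, strain or number of fish. Values are FPKM, fragments scaled for transcript length and for the size of the library, so levels of different genes are compared per length. Because each tissue has a single library, differences stand without replicates and were not tested.

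As background, the mitoribosome translates the few messages of mitochondrial DNA, which in vertebrates encode core subunits of the respiratory chain and of the ATP synthase. Its small subunit reads the message, and its large subunit joins the amino acids and passes the new chain through an exit tunnel toward the inner membrane. Many of its proteins have counterparts in the bacterial ribosome, and others exist only in mitochondria. All of them are made by cytosolic ribosomes and imported into the organelle. Roles named below are known mainly from mammals.

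FPKM values are relative to the library total, so highly abundant genes press down the rest. Factors that bring the libraries to a common median over 17448 genes (median-of-ratios scaling) were 0.35 in heart, -1.05 in kidney, -0.65 in muscle, -0.63 in gill, 1.89 in liver, -0.76 in fin and 1.13 for the library labelled spleen on the log2 scale. Member counts and medians of differences are therefore given as deposited and, where the count or the direction moves, after this scaling. Markers and single genes are as deposited unless a scaled value is given. As deposited, chosen markers were highest in their own library for 4 of 4 genes in each of heart, kidney, muscle, gill and fin. The muscle marker ckm was also high in heart, at 5885 against 7155 in muscle. The library labelled spleen did not carry its label's markers: 0 of 5 were highest there and tlx1 was listed at 0, while the fibrinogen gene fgb was 11947 in it and 10019 in liver. As deposited, none of 4 liver markers was highest in liver: fgb, fga and serpinc1 were highest in the library labelled spleen, and apoa1 was at 0.0500 in liver. Liver came next for fgb, fga and serpinc1, with fga at 5945 against 7268 and serpinc1 at 544 against 603. In the remaining libraries these genes were at most 2.11. Marker orders were not computed after scaling. Muscle and kidney held egg coat RNA: as a share of the library's FPKM, 41 zona pellucida genes held 10.8% in muscle, 5.604% in kidney, 1.21% in fin, 0.336% in heart, 0.631% in the library labelled spleen, 0.108% in liver and 0.00566% in gill. In bulk tissue, fewer cells of a type and less RNA per cell cannot be told apart.

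All 72 genes had a value above 0 in each library. Of their 504 values 2 lay under an FPKM of 1, MRPL46 and Mrps28 in liver, at 0.960 and 0.940, and all 72 passed the limit of an FPKM of at least 1 in some library, as did 21151 genes in the whole table. The median member was 29.2 in heart, 43.9 in kidney, 63.9 in muscle, 14.5 in gill, 5.68 in liver, 26.0 in fin and 8.95 for the library labelled spleen. Muscle stood highest, followed by kidney, heart and fin, with gill, the library labelled spleen and liver below. After median-of-ratios scaling the medians were 37.3 in heart, 21.2 in kidney, 40.7 in muscle, 9.39 in gill, 21.1 in liver, 15.4 in fin and 19.5 for the library labelled spleen, with muscle still highest, heart next and gill lowest. The most abundant member in 6 of the 7 libraries was mrpl57 (Pjo17420), a large-subunit protein found only in mitochondria. It was 276 in heart, 258 in kidney, 396 in muscle, 35.8 in gill, 26.3 in liver, 91.7 in fin and 41.4 for the library labelled spleen. The gill library departed from this: mrpl33, the counterpart of bacterial L33, led it at 48.6. Over all libraries the next members by mean log2(FPKM + 1) were MRPL49, mrpl33, Mrpl12 and MRPL13. The lowest were Mrpl44, mrpl58, Mrps2, Mrps27 and Mrps28.

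**Figure D1:**
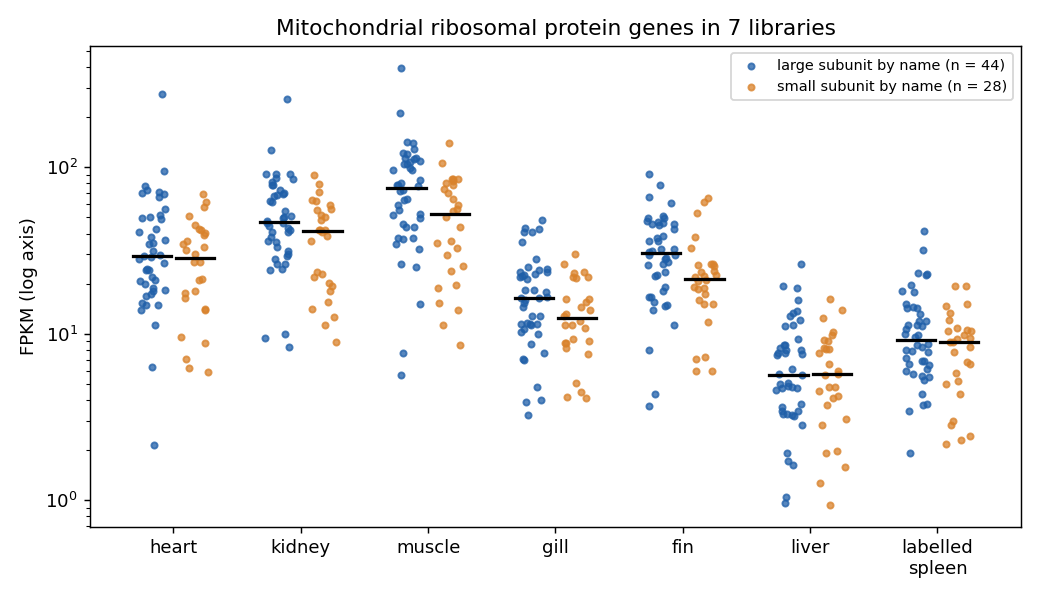
FPKM of each mitochondrial ribosomal protein gene (log axis) in 7 libraries, with large-subunit members in blue, small-subunit members in orange and black lines at the medians. Muscle is highest, with medians of 75.2 for the large and 52.6 for the small subunit, and liver lowest, at 5.66 and 5.72.

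The place of the members within their own library does not depend on scaling. Ranked among the 21151 genes, the median member lay at percentile 90.4 in heart, 89.1 in kidney, 92.0 in muscle, 76.7 in gill, 85.2 in liver, 85.1 in fin and 86.0 for the library labelled spleen. The lowest rank was in gill, where the median member was 3.49 times the median gene, against 16.4 times in heart and 16.6 times in muscle. The median gene itself was 4.16 in gill, 1.78 in heart and 3.85 in muscle, so these ratios differ through it as well as through the members. As a share of the library's summed FPKM, the 72 genes held 0.380% in heart, 0.472% in kidney, 0.732% in muscle, 0.182% in gill, 0.0907% in liver, 0.299% in fin and 0.121% for the library labelled spleen.

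Set against nuclear-encoded subunits of oxidative phosphorylation, which assemble with the products of the mitoribosome, the members were lowest in heart. As a percentage of the summed FPKM of 83 such genes, the members' sum was 7.60% in heart, 35.0% in kidney, 35.1% in muscle, 11.3% in gill, 10.6% in liver, 22.9% in fin and 13.5% for the library labelled spleen. Heart is the library where the oxidative phosphorylation genes themselves were highest: their median was 244 in heart, 98.6 in kidney, 135 in muscle, 81.6 in gill, 38.2 in liver, 80.2 in fin and 45.2 for the library labelled spleen. As deposited, the members' own median was higher in muscle and kidney than in heart. After median-of-ratios scaling it was 40.7 in muscle, 37.3 in heart and 21.2 in kidney, so kidney then lay below heart. By medians too heart was lowest and muscle highest: the median member was 0.120 times the median oxidative phosphorylation gene in heart and 0.474 times in muscle.

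Against the 88 genes of the cytosolic ribosome, the muscle library stood apart. As a percentage of the cytosolic ribosomal protein sum, the members' sum was 2.39% in heart, 2.85% in kidney, 10.5% in muscle, 0.926% in gill, 0.507% in liver, 1.49% in fin and 0.687% for the library labelled spleen. In muscle the cytosolic ribosomal proteins made up 6.98% of the library, while elsewhere they made up between 15.9% in heart and 20.0% in fin. The muscle library thus held the largest share of members and the smallest share of cytosolic ribosomal proteins. Muscle and kidney are the libraries with the most egg coat RNA, and its part in these ratios and in the differences that follow was not tested.

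**Figure D2:**
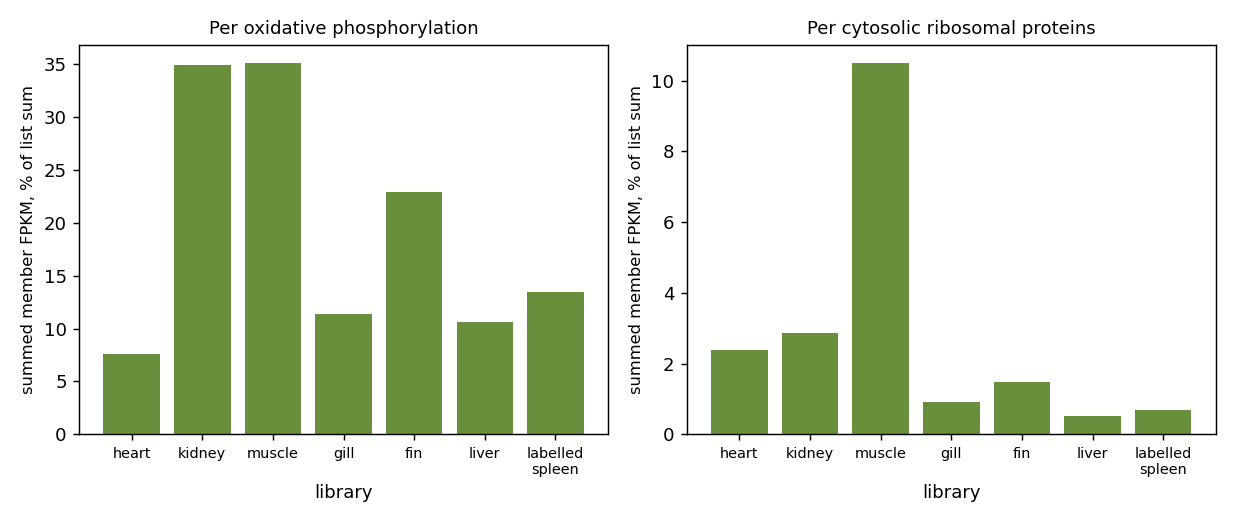
Summed FPKM of the 72 members as a percentage of the summed FPKM of 83 oxidative phosphorylation genes (left) and of 88 cytosolic ribosomal protein genes (right) in each library. Heart is lowest on the left at 7.60%, and muscle is highest on the right at 10.5%.

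Each library was then compared with the mean of the other 6 on the log2(FPKM + 1) scale, with a 2-fold difference as the limit. Shares of all genes are given as deposited only, and none was computed after scaling or with libraries left out. In muscle 57 of 72 members were at least 2-fold higher and 0 lower, where 34.9% of all genes were higher and 15.3% lower. Their median stood 1.76 above the other libraries, against 0.26 for all genes. After median-of-ratios scaling 37 members were 2-fold higher and 1 lower, and the median was 1.05, against -0.17 for all genes. The largest difference in muscle belonged to MRPL1 (Pjo05369), the protein of the flexible L1 stalk, which moves spent tRNA. It was 143 in muscle, 22.0 in heart, 91.0 in kidney, 10.3 in gill, 3.44 in liver, 28.7 in fin and 9.62 for the library labelled spleen, a difference of 3.002. Next came MRPL42 (Pjo04717), a mitochondria-specific protein, at 108 in muscle, 15.4 in heart, 69.4 in kidney, 11.5 in gill, 3.46 in liver, 23.6 in fin and 4.32 for the library labelled spleen, with a difference of 2.94. For both genes muscle and kidney were high as deposited and all other libraries lay under 30 FPKM. MRPS34 (Pjo03543), a small-subunit protein that stabilises the small ribosomal RNA, had the smallest difference, -0.52. MRPL35, with -0.29, was the other member below 0 in muscle.

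In kidney 48 members were at least 2-fold higher and 0 lower, where 38.4% of all genes were higher and 7.56% lower. Across members the median was 1.18 above the other libraries and across all genes 0.63. The member median turned to -0.04 after median-of-ratios scaling, against -0.17 for all genes, with 3 members 2-fold higher and 3 lower. MRPL48 (Pjo10767), a protein of the central protuberance at the top of the large subunit, was 73.3 in kidney, 21.0 in heart, 109 in muscle, 11.4 in gill, 1.04 in liver, 29.6 in fin and 6.52 for the library labelled spleen, with the largest difference in kidney, 2.26, next to MRPL1 at 2.25. MRPS34 and Mrpl11 were below the mean of the other libraries in kidney, by differences of -0.34 and -0.10.

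In heart 18 members were at least 2-fold higher and 0 lower, where 12.6% of all genes were higher and 26.2% lower. The median member was 0.47 above the other libraries, while the median gene stood at -0.46, and 69 of 72 members lay above the median gene. Under median-of-ratios scaling 31 members were 2-fold higher, with medians of 0.83 for members and -0.23 for all genes. As deposited, with muscle and kidney left out of the other libraries, 51 members were 2-fold higher. The member median relative to all genes was then 1.43. With the library labelled spleen left out instead, 12 members were 2-fold higher and 3 lower in heart, and the member median was 0.31. MRPS34 had the largest difference, 1.90. It was 50.7 in heart, 12.6 in kidney, 11.3 in muscle, 16.2 in gill, 9.79 in liver, 15.98 in fin and 12.2 for the library labelled spleen. As deposited, heart was the only library above 20 FPKM for this gene. MRPL2 (Pjo13999), the counterpart of bacterial L2 beside the catalytic centre, followed at 1.70, with 66.6 in heart, 29.2 in kidney, 34.8 in muscle, 25.1 in gill, 7.63 in liver, 29.8 in fin and 9.87 for the library labelled spleen. At the other end stood mrpl58 (Pjo13014), which frees stalled ribosomes, at 2.14 in heart, 10.03 in kidney, 15.1 in muscle, 3.89 in gill, 1.62 in liver, 4.36 in fin and 3.78 for the library labelled spleen, and Mrps22 (Pjo15009), a mitochondria-specific protein of the small subunit. Mrps22 was 8.76 in heart, 62.6 in kidney, 85.6 in muscle, 9.28 in gill, 3.09 in liver, 18.8 in fin and 7.73 for the library labelled spleen. In heart these 2 genes lay -0.99 and -0.92 from the mean of the other libraries.

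In gill 0 members were at least 2-fold higher and 14 lower, where 30.4% of all genes were higher and 11.8% lower. The median member was at -0.52 and the median gene at 0.35, and 5 of 72 members lay above the median gene. After median-of-ratios scaling 46 members were 2-fold lower in gill and the median was -1.22, against -0.13 for all genes. As deposited, with muscle and kidney left out of the other libraries, the member median turned to 0.07, with 2 members 2-fold lower. Relative to all genes that median was -0.57. With the library labelled spleen left out 29 were 2-fold lower. The lowest differences were those of MRPL49 (Pjo10941) at -1.85 and mrpl57 at -1.71. MRPL49 was 16.5 in gill, 69.3 in heart, 126 in kidney, 212 in muscle, 19.5 in liver, 47.6 in fin and 31.8 for the library labelled spleen, so gill was the lowest library for it, below liver. Mrpl11 (Pjo14212), which with L10 and L12 forms the base of the factor-binding stalk, went the other way with 0.80, at 42.3 in gill, 49.7 in heart, 24.4 in kidney, 26.2 in muscle, 9.34 in liver, 45.4 in fin and 13.1 for the library labelled spleen. Mrps27 (Pjo09519), a small-subunit protein with pentatricopeptide repeats, was at 0.66 and ranged, as deposited, only between 1.99 in liver and 9.02 in gill. Both differences are as deposited. After median-of-ratios scaling Mrpl11 was 27.4 in gill, below heart at 63.5, liver at 34.7 and the library labelled spleen at 28.7. Mrps27 was then 5.83 in gill, below heart at 7.94, liver at 7.40 and the library labelled spleen at 6.22. Gill stayed above kidney, muscle and fin for both.

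In fin 1 member was at least 2-fold higher and 0 lower, where 28.0% of all genes were higher and 5.39% lower. The median member was at 0.33 and the median gene at 0.46, and after median-of-ratios scaling the member median turned to -0.51, with 0 members 2-fold higher and 6 lower. With the library labelled spleen left out, 0 were 2-fold higher. With muscle and kidney left out of the other libraries, 36 were 2-fold higher in fin and the member median was 1.005. Relative to all genes that median turned to 0.13, so the median gene was also high in this comparison. The single gene was MRPL30 (Pjo09959), the counterpart of bacterial L30, at 42.8 in fin and 99.5 in muscle, 54.5 in kidney, 29.3 in heart, 16.7 in gill, 7.11 in the library labelled spleen and 3.21 in liver. MRPS18C was next at 0.98. The lowest in fin were mrpl15 (Pjo07477), counterpart of bacterial L15, at -0.53 and MRPS18A at -0.28.

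Liver and the library labelled spleen were low for nearly all members, as were many genes of the same libraries. In liver 0 members were at least 2-fold higher and 68 lower, where 4.93% of all genes were higher and 56.0% lower. Here the median member was at -1.92 and the median gene at -1.16. This direction did not hold under median-of-ratios scaling, where the liver median turned to 0.01, with 5 members 2-fold higher and 4 lower. In the library labelled spleen 0 members were 2-fold higher and 57 lower, where 5.41% of all genes were higher and 41.6% lower. Its median member stood at -1.34, against -0.86 for the median gene, and scaling left 1 member 2-fold lower. With muscle and kidney left out of the other libraries, 18 were 2-fold lower in the library labelled spleen. The largest deficit in liver was that of MRPL48, -3.79, and MRPL30 followed at -2.92. In the library labelled spleen it was that of MRPL42, -2.15, ahead of Mrpl34 (Pjo01660) at -2.03, the counterpart of bacterial L34. As deposited, MRPS34 was among the 2 members nearest to the other libraries in both, with differences of -0.73 for liver and -0.40 for the library labelled spleen, joined by MRPL35 in the first and by mrpl58 in the second. After median-of-ratios scaling MRPS34 was 64.8 in heart, 36.4 in liver, 26.5 for the library labelled spleen and at most 10.5 elsewhere. MRPL35 was then 14.1 in liver, behind heart at 18.9, and mrpl58 8.25 for the library labelled spleen, behind muscle at 9.64.

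**Figure D3:**
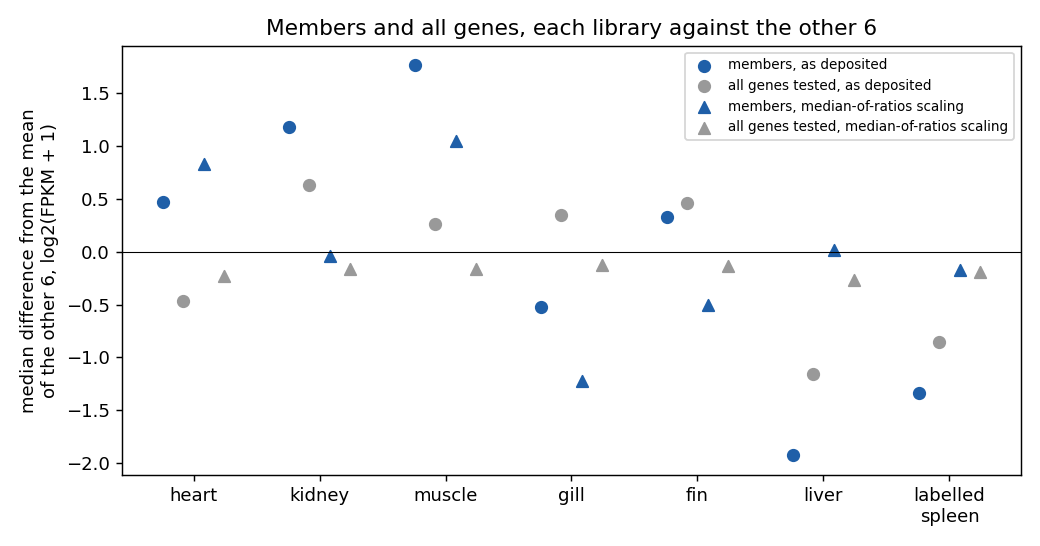
Median difference of each library from the mean of the other 6, in log2(FPKM + 1), for the 72 members (blue) and for all 21151 genes (grey), as deposited (circles) and after median-of-ratios scaling (triangles). Members lie above all genes in heart, kidney and muscle and below them in gill and fin under both scalings. The member median minus the all-gene median turns from below 0 to 0.28 for liver and 0.02 for the library labelled spleen after scaling.

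Heart and muscle, the striated muscles of the series, were compared directly. In heart 2 members were at least 2-fold higher than in muscle and 38 lower, where 16.1% of all genes were higher and 38.8% lower. The median of heart minus muscle was -1.06 for members and -0.37 for all genes. After median-of-ratios scaling it was -0.11, with 10 members 2-fold higher and 10 lower, so the balance between the organs depended on the scaling. As deposited, the differences ran from -3.15 for Mrps22 to 2.07 for MRPS34. MRPS34 was 4.50 times its muscle value in heart, and Mrps22 was 0.102 times. The other member that passed 2-fold toward heart was MRPL35 (Pjo17565), counterpart of bacterial L35, at 14.8 in heart, 9.44 in kidney, 5.67 in muscle, 7.67 in gill, 3.78 in liver, 8.04 in fin and 3.72 for the library labelled spleen. Toward muscle, MRPS6 (Pjo13231), counterpart of bacterial S6, stood beside Mrps22, at 5.92 in heart and 56.0 in muscle. MRPS6 was singled out after its values were seen.

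**Figure D4:**
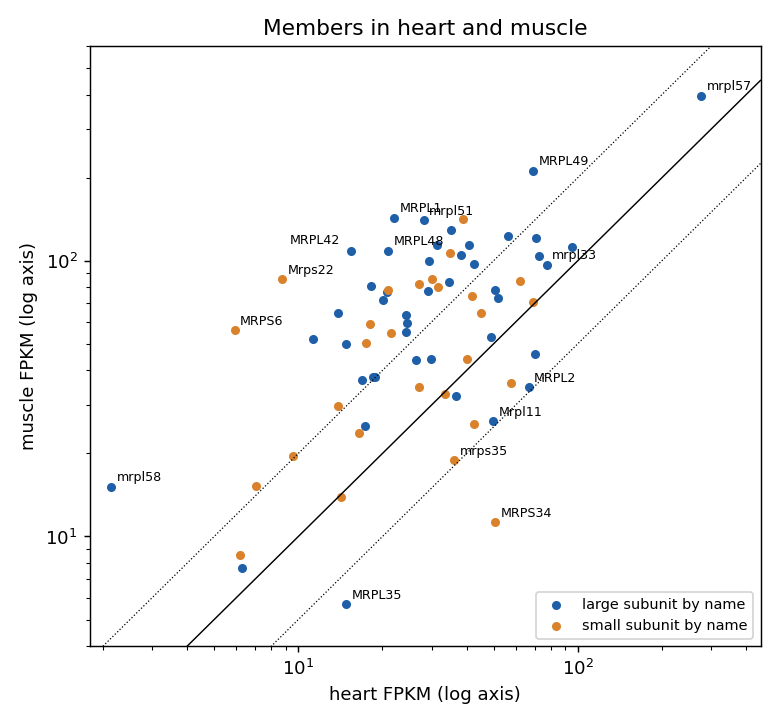
FPKM of the 72 members in heart (horizontal, log axis) and muscle (vertical, log axis), with the solid line at equality and dotted lines at 2-fold. Most points lie above the line. MRPS34, at 50.7 in heart and 11.3 in muscle, and MRPL35, at 14.8 and 5.67, lie below the lower dotted line.

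Kidney and muscle, the libraries richest in egg coat RNA, held the members at nearby levels. In kidney 0 members were at least 2-fold higher and 0 lower than in muscle, where 12.4% of all genes were higher and 4.21% lower. Kidney was nevertheless lower than muscle for 65 of 72 members, with a median of -0.45 against 0.05 for all genes. After median-of-ratios scaling 20 members were 2-fold lower in kidney, with medians of -0.83 for members and -0.13 for all genes. MRPL35 was the member with the largest difference toward kidney, 0.65. Liver, set against the library labelled spleen, had 0 members at least 2-fold higher and 6 lower, where 0.444% of all genes were higher and 7.49% lower. The median of liver minus the library labelled spleen was -0.51 for members and -0.19 for all genes, and it turned to 0.17 after scaling. MRPL48 gave the largest gap there, 1.04 in liver against 6.52 in the library labelled spleen.

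As deposited, most members shared the same broad profile. Muscle was the highest library for 56 members, heart for 11, kidney for 3, and gill and fin for 1 each, and muscle and kidney were the highest pair for 47. After median-of-ratios scaling muscle led for 37, heart for 29 and liver for 6, and every one of the 11 that led in heart as deposited still did so. Liver was the lowest library for 68 as deposited and for 1 after scaling, when gill was lowest for 57 and kidney for 9. As deposited, without the muscle library kidney led for 47 and heart for 20, and without muscle and kidney heart led for 41 and fin for 30. After scaling these turned: without muscle heart led for 52, kidney for 11 and liver for 8, and without muscle and kidney heart led for 61, liver for 8 and fin for 0. The correlation of a member with the median member over the 7 libraries, on log2(FPKM + 1), was at least 0.9 for 56 of 72 and had a median of 0.97. These points share library scaling, and each member is part of the median it is compared with. Among the 16 others were 10 of the 11 members that led in heart, and the lowest values were 0.23 for MRPS34, 0.58 for MRPL35 and 0.59 for Mrpl11. The correlation was taken as deposited only. Neither it nor the counts of highest and lowest libraries were computed for all genes. Whether the members were more alike than other genes was therefore not tested.

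The range over tissues differed between members. As deposited, the highest library was between 2.94 and 105 times the lowest, with a median of 10.8 times. The median log2 range of 3.11 compared with 2.86 for all genes. The widest was MRPL48, at 109 in muscle and 1.04 in liver. It was followed by MRPL1, MRPL18, MRPL46 and mrpl51, all highest in muscle and lowest in liver as deposited, with gill lowest for these 4 after scaling. mrps7 (Pjo02818), a counterpart of bacterial S7 that helps to organise the head of the small subunit, was the narrowest as deposited. It was 16.5 in heart, 21.9 in kidney, 23.8 in muscle, 10.9 in gill, 8.07 in liver, 22.4 in fin and 8.99 for the library labelled spleen. mrpl20 (Pjo22468), MRPL35, Mrps27 and Mrpl44 were the next narrowest as deposited, with log2 ranges of 1.67, 1.74, 1.74 and 1.78. After median-of-ratios scaling mrps7 ran from 7.05 in gill to 30.0 in liver, and Mrps27 from 4.15 in fin to 7.94 in heart. Ranges were not ranked after scaling.

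**Figure D5:**
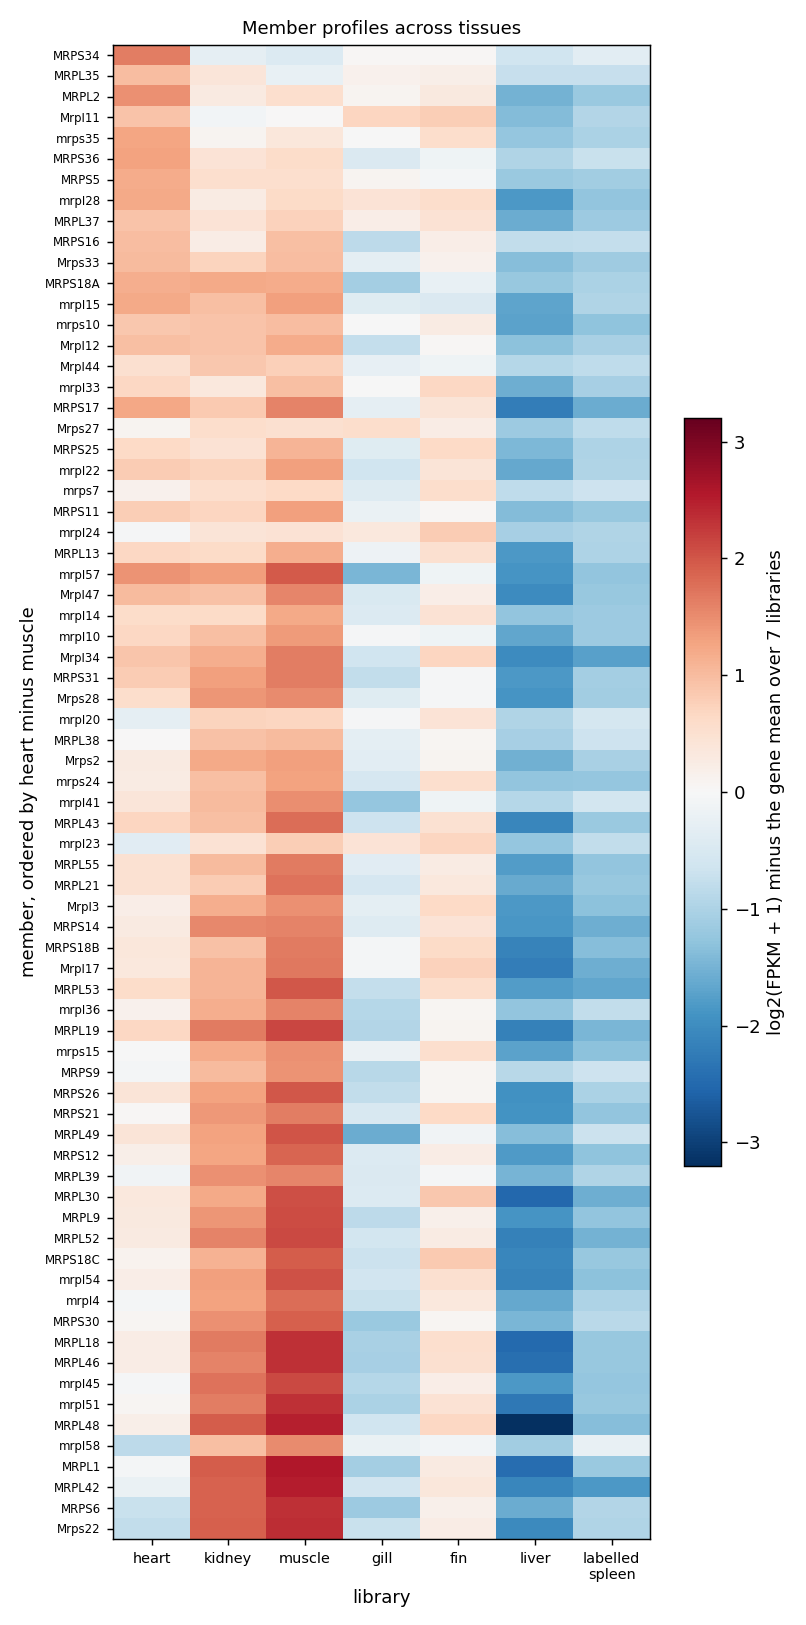
Each row is a member, ordered from the largest to the smallest heart minus muscle difference, and each column a library. Colour gives log2(FPKM + 1) minus the gene's mean over the 7 libraries. Members at the top are highest in heart, such as MRPS34 with 50.7 FPKM there, and those at the bottom in muscle and kidney, such as Mrps22 with 62.6 in kidney and 85.6 in muscle.

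Large- and small-subunit members had similar levels in some libraries and not in others. The median of the large minus the small subunit, on log2(FPKM + 1), was 0.51 in muscle, 0.48 in fin, 0.39 in gill and 0.18 in kidney. It lay between -0.01 and 0.03 in heart, liver and the library labelled spleen. In mammals MRPS30 and MRPS18A are built into the large subunit despite their names, and MRPS36 belongs to the 2-oxoglutarate dehydrogenase complex of the citric acid cycle. With members placed that way, the differences were 0.57 in muscle, 0.42 in fin, 0.32 in gill, 0.25 in kidney, 0.10 in heart and 0.21 in the library labelled spleen, and that in liver turned to 0.26. As deposited, 35 of 44 large and 22 of 28 small members were 2-fold higher in muscle, 31 and 17 in kidney and 10 and 8 in heart, and 10 and 4 were 2-fold lower in gill. Of all genes 34.9% were then higher in muscle, 38.4% in kidney and 12.6% in heart, and 11.8% were lower in gill. After median-of-ratios scaling 25 large and 12 small members were 2-fold higher in muscle, 2 and 1 in kidney and 18 and 13 in heart, and 30 and 16 were 2-fold lower in gill. Differences between the subunits in these counts were not tested. Members with a counterpart in the bacterial ribosome, 45 genes, and those without one, 26 genes, had medians of 59.5 and 75.8 in muscle and 41.8 and 47.9 in kidney. Elsewhere the genes with a counterpart had the higher median. The values were 31.7 and 20.95 in heart, 17.9 and 11.4 in gill, 28.7 and 21.45 in fin, and 7.63 and 4.80 in liver. For the library labelled spleen they were 9.62 and 7.815.

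The stalk of the large subunit recruits the translation factors. Its main protein Mrpl12 (Pjo02930), which in mammals also binds the mitochondrial RNA polymerase, was 95.6 in heart, 91.7 in kidney, 112 in muscle, 28.3 in gill, 18.9 in liver, 49.5 in fin and 23.3 for the library labelled spleen. Its anchor mrpl10 (Pjo12550) was 26.5 in heart, 33.2 in kidney, 43.6 in muscle, 16.1 in gill, 4.57 in liver, 14.9 in fin and 6.88 for the library labelled spleen. Both were highest in muscle as deposited, with Mrpl12 in heart at 0.855 times its muscle value. After median-of-ratios scaling both were highest in heart, Mrpl12 at 122 in heart and 71.3 in muscle, and mrpl10 at 33.8 in heart and 27.8 in muscle. Mrpl11 at the stalk base was highest in heart under both scalings.

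The 3 members grouped here with the catalytic centre were split. mrpl4 (Pjo11956) and Mrpl3 (Pjo19108), counterparts of bacterial L4 and L3 and named here after their values were seen, were 35.3 and 34.6 in heart and 129 and 83.8 in muscle. MRPL2 ran the other way, with 66.6 in heart and 34.8 in muscle. The 5 members assigned here to the central protuberance (MRPL18, MRPL38, MRPL46, MRPL48 and mrpl58) were all 2-fold higher in muscle and in kidney and 2-fold lower in liver as deposited. The list may not hold every protein of that structure. Of all genes 34.9% were higher in muscle, 38.4% higher in kidney and 56.0% lower in liver. Most of the 72 members shared these differences, with 57 higher in muscle, 48 higher in kidney and 68 lower in liver. After median-of-ratios scaling 4 of the 5 were 2-fold higher in muscle, 1 higher in kidney and 3 lower in liver. Among the 72 members these counts were then 37, 3 and 4. Medians of the 5 were 18.2 in heart, 36.1 in kidney, 51.8 in muscle, 6.97 in gill, 1.62 in liver, 19.1 in fin and 5.98 for the library labelled spleen. MRPL18, the counterpart of bacterial L18, was 80.9 in muscle, 18.2 in heart, 50.2 in kidney, 6.97 in gill, 1.92 in liver, 22.6 in fin and 5.98 for the library labelled spleen. MRPL46 (Pjo08288), another protein of the protuberance, was 51.8 in muscle, 11.3 in heart, 30.3 in kidney, 4.01 in gill, 0.960 in liver, 13.9 in fin and 3.46 for the library labelled spleen. Both were highest in muscle under both scalings, and lowest in liver as deposited but in gill after scaling.

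Around the exit tunnel, mrpl45 (Pjo11959) anchors the ribosome to the inner membrane. It was 13.9 in heart, 49.6 in kidney, 64.6 in muscle, 7.08 in gill, 3.24 in liver, 16.6 in fin and 5.53 for the library labelled spleen. Its neighbour Mrpl44 (Pjo15537), which has a fold related to ribonuclease III, was the lowest member by mean level. It ran, as deposited, only between 1.72 in liver and 8.32 in kidney. As deposited, heart minus muscle was -2.14 for mrpl45 and -0.25 for Mrpl44. After median-of-ratios scaling mrpl45 was 17.8 in heart and 41.2 in muscle. Mrpl44 turned, with 8.04 in heart, then its highest library, and 4.89 in muscle. mrpl51 (Pjo16896), a mitochondria-specific protein of the large subunit, was 28.1 in heart and 140.2 in muscle.

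In the small subunit, MRPS12 (Pjo21051), at the decoding centre where message and tRNA meet, was 18.0 in heart, 38.6 in kidney, 59.1 in muscle, 11.2 in gill, 3.74 in liver, 18.5 in fin and 5.78 for the library labelled spleen. Of the 3 genes related to bacterial S18, MRPS18C (Pjo21200) was 39.0 in heart, 79.1 in kidney, 141 in muscle, 22.0 in gill, 7.66 in liver, 65.4 in fin and 15.1 for the library labelled spleen, and MRPS18B (Pjo19392) was 31.7 in heart, 48.3 in kidney, 80.2 in muscle, 23.4 in gill, 4.81 in liver, 37.9 in fin and 8.90 for the library labelled spleen. MRPS18A (Pjo04625) was 68.9 in heart, 71.2 in kidney, 70.6 in muscle, 13.9 in gill, 12.4 in liver, 25.6 in fin and 14.6 for the library labelled spleen. MRPS18C and MRPS18B were highest in muscle under both scalings. MRPS18A was at nearly the same level in heart, kidney and muscle as deposited, and after median-of-ratios scaling it was 88.0 in heart, 34.4 in kidney and 45.0 in muscle. MRPS30 (Pjo05171) was 20.9 in heart and 78.4 in muscle. MRPS36 (Pjo09261), the dehydrogenase component, was 42.4 in heart, 23.0 in kidney, 25.6 in muscle, 11.9 in gill, 8.07 in liver, 15.2 in fin and 9.84 for the library labelled spleen, with heart highest. Of the least abundant small-subunit members, Mrps2 (Pjo21400), counterpart of bacterial S2, was between 1.27 in liver and 15.3 in muscle, and Mrps28 (Pjo21614), related to bacterial S1, between 0.940 in liver and 19.5 in muscle.

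Genes that assemble or serve the mitoribosome were more often 2-fold higher in muscle and kidney than in heart as deposited. Among all genes too the share was smallest in heart, with 34.9% 2-fold higher in muscle, 38.4% in kidney and 12.6% in heart. Of 22 genes for assembly factors of the mitoribosome, 17 were 2-fold higher in muscle, 16 in kidney and 2 in heart. In heart 8 of the 22 were 2-fold lower, beside 26.2% of all genes. Scaling by median of ratios left 12, 7 and 2 of them 2-fold higher in those libraries and 2 lower in heart. The median of heart minus muscle was -1.62 over these 22 genes, beside -1.06 over the 72 members. Of the 22, 17 were at least 2-fold lower in heart than in muscle and 0 higher, beside 38.8% and 16.1% of all genes. After scaling the median of heart minus muscle was -0.92, beside -0.11 over the members. For the assembly factor RBFA, which binds the small subunit as it matures, the values were 3.02 in heart, 34.8 in kidney, 57.6 in muscle, 1.74 in gill, 1.28 in liver, 10.4 in fin and 3.89 for the library labelled spleen. For MALSU1, which guards the large subunit before the subunits join, they were 33.3 in heart, 59.4 in kidney, 83.0 in muscle, 15.2 in gill, 7.67 in liver, 31.6 in fin and 13.0 for the library labelled spleen. Heart was lower than muscle for both.

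Of 15 genes for mitochondrial tRNA synthetases, which load tRNAs with amino acids, 12 were 2-fold higher in muscle, 11 in kidney and 0 in heart. Of all genes 34.9% were 2-fold higher in muscle, 38.4% in kidney and 12.6% in heart. In heart 3 of the 15 were 2-fold lower, beside 26.2% of all genes. Heart minus muscle had a median of -1.62 over the 15 genes. Of these, 11 were 2-fold lower in heart than in muscle and 0 higher, beside 38.8% and 16.1% of all genes. After scaling that median was -0.96, while 3 of the 15 genes were 2-fold higher in muscle, 1 in kidney and 1 in heart. Of 14 genes for initiation, elongation, release and related factors, 8 were 2-fold higher in muscle and 1 in heart as deposited, and 5 and 3 after scaling. As deposited, that single gene was the elongation factor Tufm, which brings loaded tRNA to the ribosome, at 67.0 in heart, 33.4 in kidney, 34.4 in muscle, 25.2 in gill, 18.5 in liver, 35.1 in fin and 19.7 for the library labelled spleen. The release factor mtrfr was 4.27 in heart and 107 in muscle. Of 20 factors for mitochondrial RNA and DNA, 13 were 2-fold higher in muscle and 5 in heart as deposited, and after scaling the order turned, with 6 in muscle and 8 in heart. Fastkd2 is counted both in this list and among the assembly factors. TFAM, which packages mitochondrial DNA and starts its transcription, was 5.29 in heart, 26.5 in kidney, 30.4 in muscle, 6.59 in gill, 1.59 in liver, 10.8 in fin and 3.49 for the library labelled spleen. Not all of the 20 ran this way: TFB2M was 49.2 in heart and 17.8 in muscle. As deposited, 3 of the 20 were 2-fold higher in heart than in muscle and 9 lower, beside 16.1% and 38.8% of all genes. Their median of heart minus muscle was -0.68, and after scaling 0.085, with 4 higher and 5 lower. Over the 14 initiation, elongation, release and related factors that median was -0.86 as deposited and 0.067 after scaling. In contrast, 40 of the 83 oxidative phosphorylation genes were 2-fold higher in heart than in muscle and 4 lower, beside 16.1% and 38.8% of all genes. Their median was 0.93, and after scaling 70 were higher and 2 lower.

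Proteins of the mitoribosome also stood in the table under other names. DAP3, the small-subunit protein S29, was 33.1 in heart, 31.2 in kidney, 35.2 in muscle, 16.6 in gill, 7.82 in liver, 20.4 in fin and 8.41 for the library labelled spleen. For 3 further rows the annotation joined a mitoribosomal protein to another protein: L16 with CENPQ, L27 with PKD1 and S23 with NOS2. As deposited, all 3 were highest in muscle with kidney next. The CENPQ row was 78.9 in kidney and 101 in muscle, the PKD1 row 38.5 in kidney and 60.6 in muscle and the NOS2 row 24.01 in kidney and 36.2 in muscle. The table does not divide such a row between its proteins. Of the other mitoribosomal proteins listed for this comparison, Gadd45gip1 was 24.3 in heart and 21.8 in muscle, and CHCHD1 36.5 in heart and 22.5 in muscle, both highest in heart. In contrast, ptcd3 was 9.96 in heart and 18.4 in muscle, with muscle highest as deposited.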

How the data were processed

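The 7 libraries were made from TRIzol-extracted RNA with a Vazyme kit for MGI sequencers, per the labels' protocols. The authors deposited FPKM per gene, printed to 2 decimals. HISAT2 2.2.1 and RSEM 1.3.3 are named, without roles, in the submitters' processing notes. The genome build is not given in the sources used here. Read totals are absent from the table, which leaves depth unknown and allows no interval. Python 3.11.15, numpy 2.4.6, pandas 2.3.3 and matplotlib 3.10.9 were used. Differences were taken on log2(FPKM + 1), which understates the change of low genes, over genes that reached an FPKM of 1 in any library; folds beside them are of plain FPKM. The 2-fold counts and the median-of-ratios scaling were tested on simulated libraries. Apart from small noise and a factor per library, those libraries differed in few genes. They therefore cannot show how the scaling performs under the wide shifts between the real libraries. Alternatives were the scaling, the pseudocount, the limit on low values, the libraries compared with, and the placing of members in subunits. Estimation of reads can divide them between similar genes. The members, lists, roles and rules were chosen with earlier results of these data known. Members named are the 5 highest, lowest, widest and narrowest, the 2 of largest and smallest difference in each library, and 11 fixed by role; other named genes were picked afterwards.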

Additional observations from a re-analysis of the deposited data

How the results depend on the processing

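Of 430 recomputed values, 364 kept their direction and stayed within 1.5-fold of the value given, 55 moved by more and 11 changed sign. With no replicates, that 1.5-fold limit stands in for a replicate spread. One row per gene name, leaving out MRPS36 and a limit of 5 FPKM moved none of the 40 values recomputed under each. Each member has a name of its own and passes every limit used. The choice of row and of limit could therefore change only the medians of all genes, not member counts or member medians. Part of the 364 unchanged values was fixed in this way. Median-of-ratios scaling moved the most. Under it 31 members were 2-fold higher in heart, 3 higher and 3 lower in kidney, 37 higher and 1 lower in muscle, 46 lower in gill, 0 higher and 6 lower in fin, 5 higher and 4 lower in liver, and 1 lower in the library labelled spleen. The pairs then gave 10 higher and 10 lower in heart than in muscle, 20 lower in kidney than in muscle and 1 lower in liver than in the library labelled spleen. Member medians turned to -0.036 in kidney, -0.51 in fin, 0.014 in liver and 0.17 for liver minus the library labelled spleen. Relative to all genes they turned to 0.28 in liver, 0.022 in the library labelled spleen and 0.10 for that pair. The library of the highest value was then heart for 29, muscle for 37, liver for 6 and kidney, gill and fin for 0 each. With muscle and kidney left out of the other libraries, 51 members were 2-fold higher in heart, 36 higher in fin, 2 lower in gill and 18 lower in the library labelled spleen, the gill median turned to 0.074 and the fin median relative to all genes to 0.13. Heart then led for 41 and fin for 30, and with muscle alone left out heart led for 20, kidney for 47 and fin for 4. Without the library labelled spleen, 12 members were 2-fold higher and 3 lower in heart, 29 lower in gill and 0 higher in fin. With the median of the other libraries 25 were lower in gill. At a common summed FPKM 1 was lower in heart, 0 higher in fin and 2 lower in kidney than in muscle. With a pseudocount of 0.1, 1 was lower in heart, 3 higher in fin and 10 lower in liver than in the library labelled spleen, and the liver median relative to all genes was -0.11. With no limit on low values that of fin turned to 0.039. As log2 ratios of medians in place of sums, members over oxidative phosphorylation genes were -3.06 in heart and -2.49 in gill, and members over assembly factors 1.32 in kidney, 1.69 in muscle, 2.25 in gill, 2.15 in fin, 2.79 in liver, and 2.06 for the library labelled spleen. Placing members as in mammals turned the large minus small difference in liver to 0.26. The cause of these changes was not tested. Depth is unknown, so the precision of low values such as those in liver cannot be given. No paired analysis was possible because each tissue has 1 library and no replicate.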
